A study of Mus musculus and Canis lupus familiaris and Equus caballus with 9 samples.

Results

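The genes described here make, break down and carry the small-molecule transmitters of neurons: 33 mouse genes given by name, out of 21900 protein-coding genes in the annotation. They were fixed by name, with earlier results of these data known, and all 33 matched a protein-coding gene by symbol. By transmitter system, 15 belong to the monoamines (dopamine, noradrenaline, adrenaline, serotonin and histamine), 4 to acetylcholine, 7 to GABA and glycine and 7 to glutamate. By role, 11 are synthesis enzymes and their cofactor enzyme, 3 are breakdown enzymes, 12 are transporters of the plasma membrane and 7 are transporters of synaptic and secretory vesicles.

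Chromatin immunoprecipitation and sequencing (ChIP-seq) of NRSF, also named REST, had been run on RAW264.7, an established mouse macrophage line labelled as of the BALB/c strain, at passages 13 to 15. Of the 9 samples of the series, 3 were mouse: 2 immunoprecipitated with a monoclonal NRSF antibody and 1 of input DNA, with no genetic change or treatment stated for any of them. Both immunoprecipitated samples are tied to 1 list of 2357 peaks, each 400 bp wide, which gives positions in mm10 and neither a height, a p-value nor a value per replicate. No error between replicates can therefore be set beside a count below, and the depth behind a peak is unknown. The list holds no expression values, so the macrophage label was not checked against marker genes, and nothing below says whether a gene was transcribed.

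NRSF represses transcription: its zinc fingers grip a long, split DNA element, and it recruits histone deacetylases and other corepressors. It is best known for keeping neuronal genes silent in cells that are not neurons. A neuron's transmitter is set by which genes it turns on from a small repertoire: an enzyme that makes the transmitter, a vesicular carrier that loads it, and a carrier of the plasma membrane that takes it, or its precursor, back up.

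A peak was tied to a gene if its midpoint fell in the annotated span or no more than 10 kb beyond it. By this measure 10 of the 33 transmitter genes had a peak (30.3%), where 1640 of the 21900 protein-coding genes did (7.49%). The 10 genes were Tph1, Tph2, Slc18a1, Chat, Slc18a3, Gad1, Slc6a5, Slc6a11, Slc17a6 and Slc1a2. They lay beside 10 distinct peaks, because Tph2 had 2 peaks while Chat and Slc18a3 shared 1. Of these peaks, 7 were inside the span of a transmitter gene. A gene with more than 1 peak was also the less common case among all protein-coding genes with a peak, 221 of 1640 (13.5%). The genes had been listed with these data already known, so the share is a description and no test was made of it.

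Sequence was read at the 2 listed transcription starts that a peak covered in part, those of Tph2 and Slc17a6, and at the start of Gad2, which had the best element match of ordinary spacing but no peak. Each window runs from 250 bases before to 50 bases after a start listed by RefSeq (GRCm38.p6, the assembly that mm10 denotes) and is printed in the direction of the gene. In Tph2 and Gad2 the capitals mark the best match to the NRSF element with its gap, and in Slc17a6 they mark the bases inside the peak.
Tph2, chr10:115184973-115185272, minus strand: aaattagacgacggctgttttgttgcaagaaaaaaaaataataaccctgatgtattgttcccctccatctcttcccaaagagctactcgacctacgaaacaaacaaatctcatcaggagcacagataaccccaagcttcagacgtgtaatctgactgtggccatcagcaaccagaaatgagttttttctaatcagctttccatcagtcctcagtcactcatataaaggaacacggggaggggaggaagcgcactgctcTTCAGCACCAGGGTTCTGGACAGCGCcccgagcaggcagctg
Slc17a6, chr7:51621580-51621879, plus strand: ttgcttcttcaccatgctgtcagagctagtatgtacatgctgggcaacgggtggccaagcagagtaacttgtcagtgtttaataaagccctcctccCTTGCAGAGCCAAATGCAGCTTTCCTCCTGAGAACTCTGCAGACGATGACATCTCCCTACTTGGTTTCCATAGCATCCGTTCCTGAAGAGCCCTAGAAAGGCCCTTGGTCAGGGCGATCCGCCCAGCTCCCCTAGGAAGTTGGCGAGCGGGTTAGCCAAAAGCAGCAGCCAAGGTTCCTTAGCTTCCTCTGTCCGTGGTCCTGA
Gad2, chr2:22622077-22622376, plus strand: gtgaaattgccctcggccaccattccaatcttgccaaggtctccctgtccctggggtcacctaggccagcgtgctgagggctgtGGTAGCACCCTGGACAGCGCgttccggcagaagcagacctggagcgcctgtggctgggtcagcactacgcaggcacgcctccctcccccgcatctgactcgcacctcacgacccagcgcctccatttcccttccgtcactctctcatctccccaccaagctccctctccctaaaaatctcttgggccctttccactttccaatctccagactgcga

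The element was searched on both strands as a left block, TTCAGCACC, and a right block, GGACAGCGC, which is 18 letters in all, with the usual gap of 2 bases between them. The blocks do not overlap each other. The 38 windows found for 29 of the genes matched 9 to 12 letters at best, except that of Gad2, which matched 15. Of all 32851 promoter windows of the same length, 37 (0.113%) matched 15 letters or more. Such a match was held by 16 of the 145 windows that a mouse peak touched (11%) and by 21 of the 32706 others (0.0642%).

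With any gap from 0 to 20 bases allowed, a search added after the data were seen, the Tph2 window matched all 18 letters, with 8 bases between the blocks. Of all windows 4 (0.0122%) did so, and 3 of these were among the 145 touched by a peak. With the gap fixed at 2, the same Tph2 window matched 12 letters at best, which 19.2% of all windows reached. The best matches in Tph2 and Gad2 read as follows, with the letters that match in capitals.
Tph2, chr10:115184989-115185014: TTCAGCACCagggttctGGACAGCGC
Gad2, chr2:22622161-22622180: ggtAGCACCctGGACAGCGC
The Tph2 match covers bases 9 to 34 counted from the listed start as base 1, and the midpoint of the peak lay within it. The Gad2 match departs from the element at T1G, T2G and C3T, with positions counted from the first base of the left block, and 146 bases lie between its end and the listed start. The Slc17a6 window matched 11 letters with a gap of 2 and 13 with any gap, and 36.4% of all windows matched 13 or more. With any gap, Slc17a7, Slc17a8, Slc6a3 and Slc18a2 each reached 14 letters, as 6.73% of all windows did, and none of these 4 windows was touched by a peak. A match is a run of letters and not a measured site, and only 204 bases of the 400 bp Slc17a6 peak fall in its window.

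**Figure D1:**
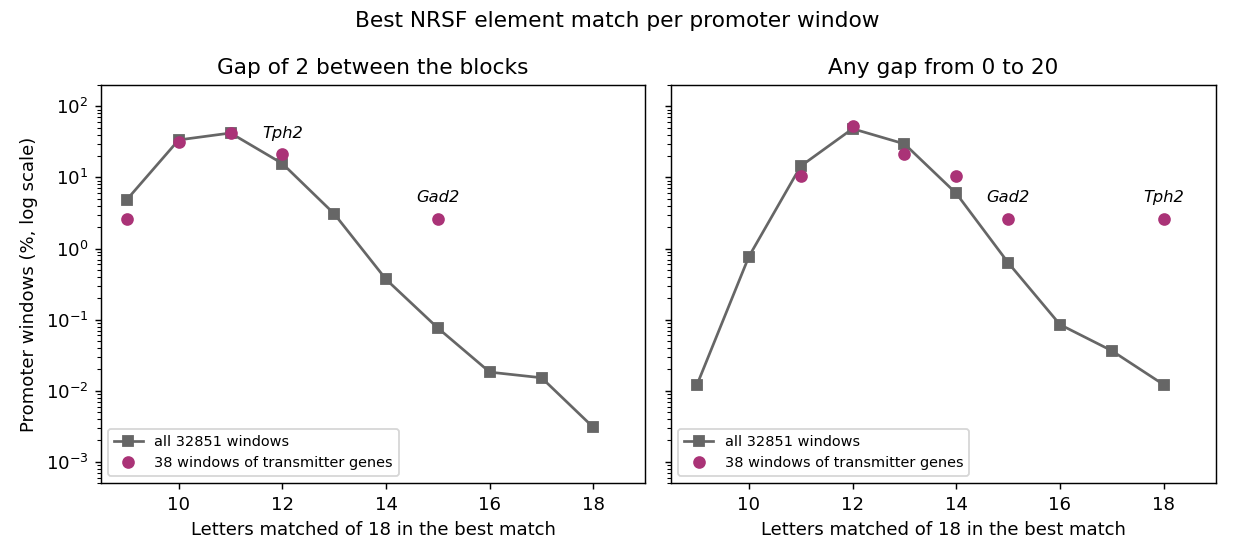
Letters matched of 18 in the best match to the NRSF element (horizontal axis) against the percent of promoter windows on a log scale, for all 32851 windows (grey squares) and the 38 windows of transmitter genes (purple points), with a gap of 2 (left) or any gap from 0 to 20 (right). Gad2 stands at 15 letters in both panels, and Tph2 moves from 12 letters to 18 when the gap is free.

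Among the monoamine genes 3 of 15 had a peak (20%), and these were serotonin synthesis enzymes and 1 vesicular carrier. Tph2, the tryptophan hydroxylase of brain serotonin neurons (chromosome 10, 115078641 to 115185022), had a peak at 115184805 to 115185205, with its midpoint 17 bp downstream of the listed start. The other Tph2 peak, at 115143615 to 115144015, lay 41207 bp downstream of that start, at 38.7% of the span. Tph1, the tryptophan hydroxylase of peripheral tissues and the pineal gland (chromosome 7, 46644641 to 46672537), had a peak at 46650245 to 46650645, at 79.2% of the span and 16932 bp downstream of the nearer of its 2 listed starts. The peaks of these paralogs thus differed in place, 1 at a start and the others well downstream of one, that of Tph1 being 5804 bp inside its lower end. That of Tph1 was also within reach of Sergef, 7549 bp outside the end of that gene.

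Slc18a1, the vesicular monoamine carrier known best from adrenal chromaffin cells (chromosome 8, 69037708 to 69089238), had a peak at 69088375 to 69088775, 663 bp inside its upper end. The spans of Slc18a1 and of Atp6v1b2, a subunit of the proton pump that acidifies vesicles and lysosomes, overlap there by 503 bp. The midpoint was 161 bp outside the lower end of Atp6v1b2, so this peak was closer to an end of Atp6v1b2 than to one of Slc18a1. Slc18a2, the vesicular monoamine carrier of brain neurons, had its nearest peak 173.2 kb away.

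The other 12 monoamine genes had no peak in reach, as was the case for most protein-coding genes. Th, tyrosine hydroxylase, the rate-limiting enzyme of catecholamine synthesis, was 919.2 kb from the nearest peak. Ddc, which makes dopamine and serotonin from their amino acid precursors, was 2242 kb away. Dbh, which turns dopamine into noradrenaline, was 117.7 kb away, and Pnmt, which turns noradrenaline into adrenaline, was 62.4 kb away, the least of the monoamine genes with no peak. The carriers that take up noradrenaline (Slc6a2), dopamine (Slc6a3) and serotonin (Slc6a4) were 468.3, 430.9 and 310.3 kb from a peak. Hdc, which makes histamine, was at 778 kb, and Gch1, which makes the cofactor of the hydroxylases, at 152.5 kb. The monoamine oxidases Maoa and Maob, neighbours on chromosome X, were at 656.6 and 746.1 kb. In this system, then, a gene either held a peak inside its span or had none within 62 kb.

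Of the 4 acetylcholine genes 2 had a peak (50%), and it was the same one. Chat makes acetylcholine and Slc18a3, the vesicular acetylcholine carrier, lies within its span on chromosome 14 (Chat 32408203 to 32465909, Slc18a3 32462437 to 32464850). The peak at 32467585 to 32467985 lay upstream of both, 1876 bp before the listed start of Chat and 2935 bp before that of Slc18a3. The counts here give both genes, although they rest on 1 peak. When each peak went only to the gene with the nearest end, at any distance, acetylcholine stood at 1 of 4 (25%). GABA and glycine then stood highest at 4 of 7 (57.1%), with Slc32a1 added from beyond the 10 kb reach. Glutamate stood at 3 of 7 (42.9%), with Slc1a1 likewise added, and monoamine at 2 of 15 (13.3%). Under that rule 8.49% of all protein-coding genes had a peak. Slc5a7, which takes up choline, was 1795.7 kb from a peak, and Ache, which breaks acetylcholine down in the synaptic cleft, 153.1 kb.

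Of the 7 GABA and glycine genes 3 had a peak (42.9%). Gad1, the larger of the glutamate decarboxylases that make GABA (chromosome 2, 70561303 to 70602014), had a peak at 70559515 to 70559915, 1588 bp outside its span and 2414 bp upstream of its listed start. The midpoint lay inside Gad1os, a long noncoding RNA gene (70489940 to 70563357) whose span overlaps the lower end of Gad1. Its paralog Gad2, with the element match shown above, had its nearest peak 237 kb away.

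Slc6a5, the glycine carrier of glycinergic neurons (chromosome 7, 49906984 to 49963864), had a peak at 49910410 to 49910810. The midpoint was 3626 bp inside the span but 311 bp downstream of a listed start. Slc6a9, the glycine carrier found largely on glia, was 24.3 kb from a peak. Slc6a11, a GABA carrier found largely on astrocytes (chromosome 6, 114131241 to 114249886), had a peak at 114187115 to 114187515, 56074 bp downstream of its listed start and at 47.3% of its span. Slc6a13, a related GABA carrier, was 135.5 kb from a peak. Slc32a1, which loads GABA and glycine into vesicles, fell just outside the reach at 12 kb.

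Of the 7 glutamate genes 2 had a peak (28.6%). Slc17a6, the vesicular glutamate carrier VGLUT2 (chromosome 7, 51621830 to 51671126), had a peak at 51621675 to 51622075, with its midpoint 45 bp downstream of a listed start. The midpoint also lay inside Gm33136, a long noncoding RNA gene. The other vesicular glutamate carriers, Slc17a7 (VGLUT1) and Slc17a8 (VGLUT3), were 190.1 and 349.3 kb from a peak. Slc1a2, the main astrocyte glutamate carrier (chromosome 2, 102658239 to 102790784), had a peak at 102652075 to 102652475, 5964 bp outside its span but 54163 bp upstream of its only listed start. That peak was also within 10 kb of Pamr1 and of a noncoding gene. Slc1a1, a neuronal glutamate carrier, was outside the reach at 16.7 kb, and Slc1a6, found on Purkinje cells, and Slc1a3, an astrocyte carrier, were at 808 and 3951.3 kb.

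**Figure D2:**
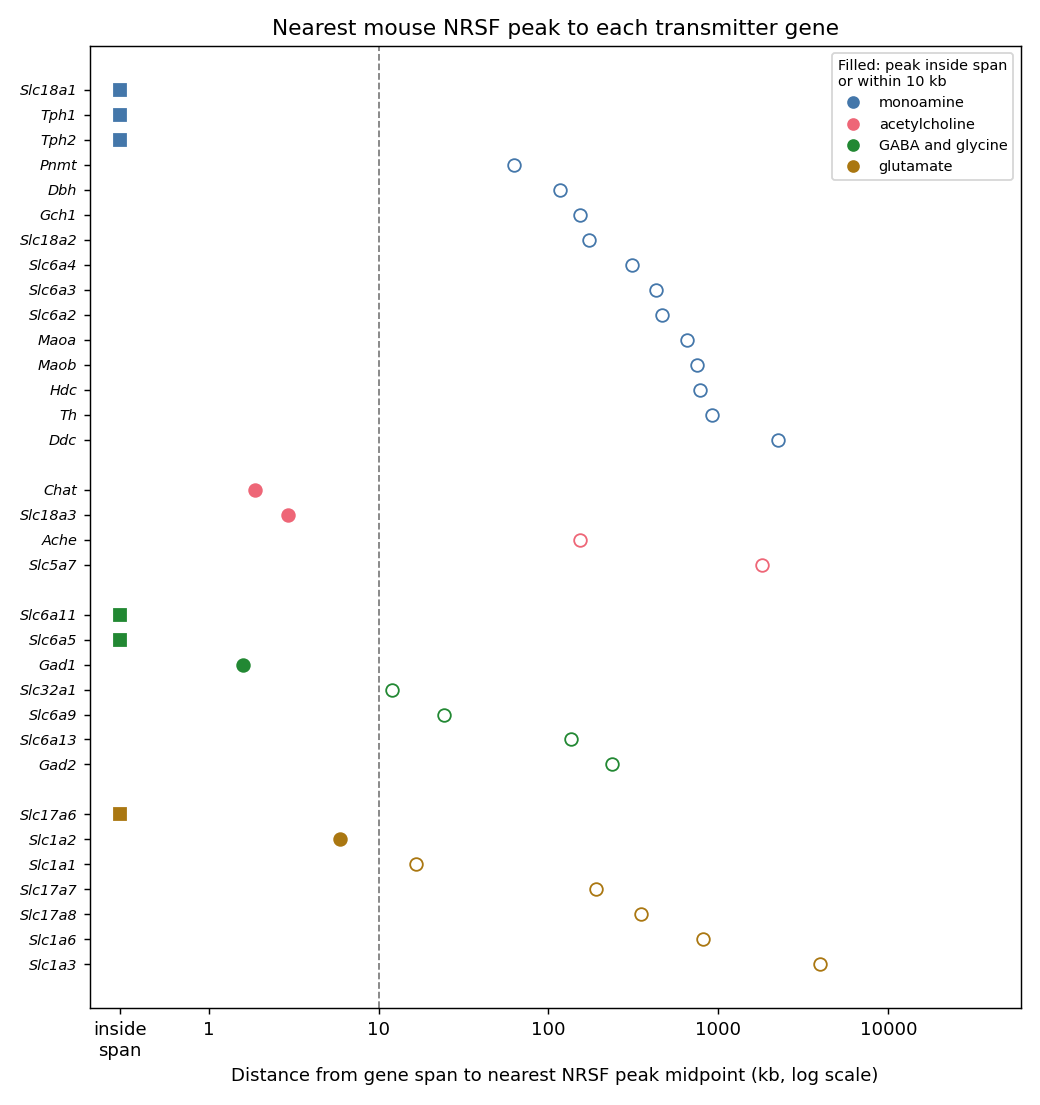
Distance from each gene span to the nearest peak midpoint in kb on a log scale, with squares at the left for genes that hold a midpoint inside their span and filled symbols for the 10 genes with a peak by the 10 kb rule (dashed line). Monoamine genes without a peak all stand at 62.4 kb or more, whereas Slc32a1, Slc1a1 and Slc6a9 stand at 12, 16.7 and 24.3 kb.

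Across the systems, the median distance from gene to nearest peak was 310 kb for the monoamine genes, 78 kb for acetylcholine, 12 kb for GABA and glycine and 190 kb for glutamate. It was 152 kb over all 33 genes, compared with 298 kb over all protein-coding genes. No acetylcholine gene lay near that system's median: Chat and Slc18a3 were 1.9 and 2.9 kb from their shared peak, Ache and Slc5a7 153.1 and 1795.7 kb from one. The shares with a peak ran from 20% (monoamine) to 50% (acetylcholine, from 1 shared peak), beside 7.49% of all protein-coding genes. But with 4 to 15 genes a system, a change of 1 gene moves them widely. Their order also depended on the reach. With a reach of 1 kb, monoamine still stood at 20%, and GABA and glycine at 28.6%. Glutamate then stood at 14.3% and acetylcholine at 0 of 4, beside 5% of all protein-coding genes. These differences between systems were not tested.

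By role, vesicular carriers had a peak in 3 of 7 (42.9%: Slc17a6, Slc18a1 and Slc18a3), synthesis enzymes in 4 of 11 (36.4%: Tph1, Tph2, Chat and Gad1) and plasma membrane carriers in 3 of 12 (25%: Slc6a5, Slc6a11 and Slc1a2). Of the 3 breakdown enzymes Ache, Maoa and Maob, 0 had one, at distances of 153.1 kb and more. Of all protein-coding genes 7.49% had a peak, and with so low a share 3 genes are too few for a count of 0 to set the breakdown enzymes apart. The peak of Chat and Slc18a3 enters both the synthesis and the vesicular count. With each peak given only to the nearest gene end, at any distance, the order of the roles changed. Synthesis enzymes then stood at 4 of 11 (36.4%), plasma membrane carriers at 4 of 12 (33.3%) and vesicular carriers at 2 of 7 (28.6%). The share of all protein-coding genes under that rule was 8.49%. Some closely related genes differed and others did not. Both tryptophan hydroxylases had a peak, whereas the related Th did not. Of the SLC1 glutamate carriers Slc1a2 had one, while Slc1a1, Slc1a3 and Slc1a6 did not. The contrast of Slc1a2 with Slc1a1 rests on the 10 kb limit, as their nearest peaks lay 5964 and 16660 bp outside the span. At a reach of 5 kb neither of them had a peak, and at 20 kb both did. Gad1 had one and Gad2 did not, Slc6a5 did and Slc6a9 did not, Slc6a11 did and Slc6a13 did not, and Slc17a6 alone did so among the vesicular glutamate carriers. Of the vesicular carriers of the SLC18 family, Slc18a1 and Slc18a3 had a peak and Slc18a2 did not. Maoa and Maob, and the monoamine carriers Slc6a2, Slc6a3 and Slc6a4, had none.

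Where the peak lay within the gene differed among the 10. Listed starts were given for 29 of the 33 genes, and 3 of the 29 (10.3%) had a peak midpoint within 1 kb of one: Tph2, Slc17a6 and Slc6a5. Among all protein-coding genes with a listed start the share was 1.35%. Measured to annotated gene ends instead, 3 of the 33 (9.09%) had a midpoint within 1 kb, namely Tph2, Slc17a6 and Slc18a1, compared with 1.58% of all protein-coding genes. The peaks of Chat, Slc18a3 and Gad1 lay 1876 to 2935 bp upstream of a listed start. That of Slc6a11 and the second of Tph2 were deep inside the gene, and that of Tph1 was 5804 bp inside its lower end.

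**Figure D3:**
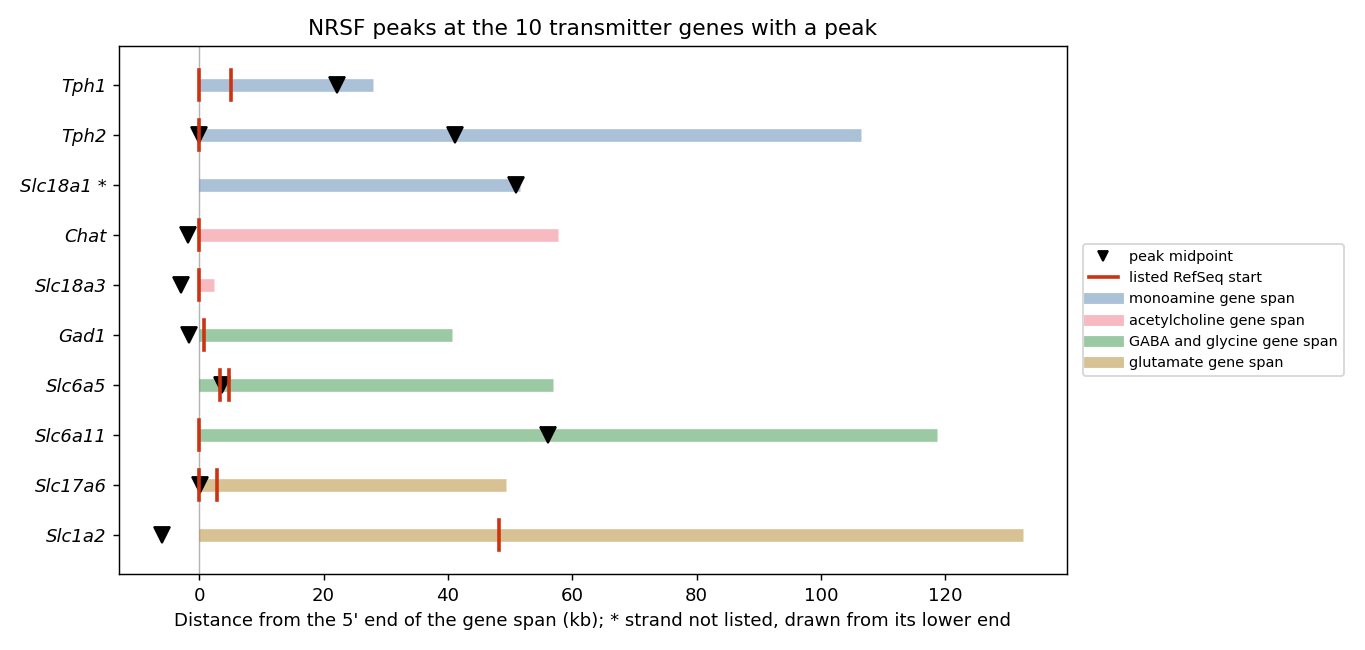
Spans of the 10 genes with a peak (bars, coloured by system), drawn in kb from the 5′ end of each span (from the lower end for Slc18a1, whose strand is not listed), with peak midpoints (triangles) and listed starts (red ticks). The first Tph2 peak and those of Slc17a6 and Slc6a5 lie within 311 bp of a listed start, the second Tph2 peak lies 41207 bp from it, and that of Slc1a2 lies before the span and 54163 bp from its listed start.

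The rule counts over the whole span, so longer genes offer it more positions by construction, and a larger share of them had a peak. The transmitter genes were longer than most, with a median span of 40.7 kb compared with 17.1 kb over all protein-coding genes. Among genes with a span of 20 to 100 kb, 6 of 22 transmitter genes had a peak (27.3%), where 7.82% of all protein-coding genes of that length did. Under 20 kb it was 1 of 7 (14.3%), Slc18a3, where the share of all was 5.11%. Over 100 kb it was 3 of 4 (75%), Tph2, Slc6a11 and Slc1a2 but not Maob, where the share of all was 18.1%. In each class the share of transmitter genes was above that of all genes, though 1 gene decides the value in the shortest class. That gene, Slc18a3, had only the peak it shares with Chat, which also counts in the 20 to 100 kb class. Windows of the same number and width, moved by 200 kb up or down the chromosome, met 2 of the 33 genes in each direction (6.06%): Slc18a2 and Slc6a11 upward, Slc6a5 and Slc17a7 downward. Of all protein-coding genes the moved windows met 7.17% and 7%. The 33 genes were listed with earlier results of these data known, so their lower count after the move is only a description.

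**Figure D4:**
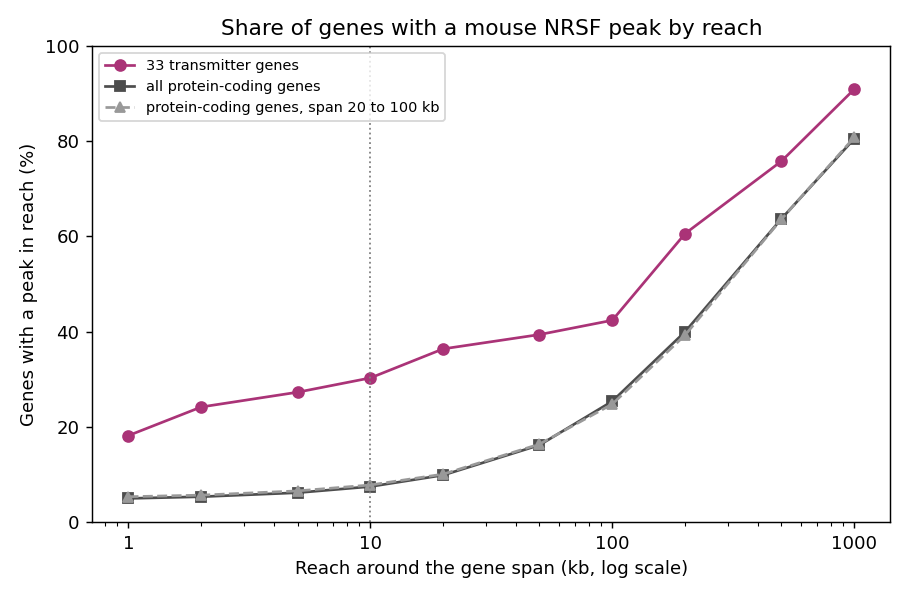
Percent of genes with a peak midpoint inside the span or within the reach on the horizontal axis (kb, log scale), for the 33 transmitter genes (purple), all protein-coding genes (dark squares) and those of 20 to 100 kb (grey triangles, dashed). The transmitter genes stand at 18.2% within 1 kb and 30.3% within 10 kb, compared with 5% and 7.49% of all genes. At 1000 kb the curves are still apart, at 90.9% and 80.5%.

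A further 49 genes of transmitter metabolism and of the same carrier families, outside the 33, were also listed. They came from general knowledge, but with earlier results of these data known, and all matched. Of these 6 had a peak (12.2%), again beside 7.49% of all protein-coding genes. Slc6a17, a vesicular carrier of neutral amino acids in neurons, carried a peak on chromosome 3 (107512145 to 107512545), 5673 bp inside its closer end. Slc29a4, a low-affinity monoamine carrier, had one 2337 bp inside an end, and Slc1a4, a carrier of neutral amino acids in the glutamate carrier family, one 1098 bp inside an end. Dao, which degrades D-serine, had one 10330 bp inside an end. Gchfr, the feedback regulator of the Gch1 enzyme, and Abat, which breaks GABA down, had peaks 7653 and 8969 bp outside an end. At a distance of 1 kb or less from an annotated end, a peak was found for 0 of these 49 genes, where the share of all protein-coding genes was 1.58%.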

How the data were processed

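The data used are the mouse peak list of 3 mouse samples (2 immunoprecipitated, 1 input). The values the authors deposited are positions, with no header, score or count. The submitters' processing notes list Bowtie 0.12.8, an aligner, and MACS 1.4.2, a peak finder, without saying how each was run. The peak threshold, the way of joining the 2 replicates, and whether positions count from 0 or 1 (an uncertainty of 1 base) are unknown from the labels and the file. Lists of other species were not used here. Gene spans and promoter windows came from RefSeq tables of GRCm38.p6, with strands for windows only. Windows were found for 29 of the 33 genes, not for Pnmt, Maob, Slc6a2 and Slc18a1. A peak in reach of several genes counted for each.

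The genes, systems, roles and the 49 further genes were chosen with earlier results of these data known. All 33 genes are named, with other genes only where they share a peak or are among the 49; 1 more gene listed at first is not reported here. No test was made, and counts are to be read against the share of all protein-coding genes under the same rule. A comparison of paralog proteins was planned and not run. The counting and the element search were tested on simulated data. Alternatives were other reaches, gene ends only, any overlap, the nearest gene end only (at any distance), windows moved by 200 kb, and other element thresholds. Distances to listed starts and free element gaps were added after the data were seen. Python 3.11.15 with numpy 2.4.6, pandas 2.3.3 and matplotlib 3.10.9 was used.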

Additional observations from a re-analysis of the deposited data

How the results depend on the processing

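The count of 10 genes with a peak was 8, 9, 12 and 13 at reaches of 2, 5, 20 and 50 kb, where the share of all protein-coding genes was 5.36%, 6.2%, 9.89% and 16.2%. From 10 to 50 kb the share of transmitter genes went from 30.3% to 39.4%, and that of all genes from 7.49% to 16.2%. The count was 9 with gene ends within 10 kb (all genes 5.63%) and 10 with any overlap of the peak (7.52%). It was also 10 with each peak given to the nearest gene end only, with no limit on distance (8.49%). Of those 10, 8 were shared with the main count: Slc18a1 and Slc18a3 left, Slc32a1 and Slc1a1 entered. With a reach of 1 kb, or the span only, the count was 6 (all genes 5% and 4.43%), with 0 acetylcholine, 1 glutamate, 2 synthesis and 4 of the 49 further genes. With gene ends within 1 kb it was 3 (all genes 1.58%), with 0 acetylcholine, 0 GABA and glycine, 1 glutamate, 1 synthesis, 0 plasma membrane and 0 further genes. Listed starts were given for 29 of the 33 genes and 32 of the 49 further genes. With a listed start within 1 kb the count was 3 (all genes 1.35%), with 1 monoamine, 0 acetylcholine, 1 GABA and glycine, 1 glutamate, 1 synthesis, 1 plasma membrane, 1 vesicular and 0 further genes. With a listed start within 10 kb it was 6 (all genes 3.9%), with 1 monoamine, 1 glutamate, 1 plasma membrane and 4 further genes. The smaller reaches count fewer positions by construction. At 2 kb acetylcholine and glutamate had 1 each and the further genes 4, at 5 kb glutamate had 1, at 50 kb GABA and glycine and the plasma membrane carriers had 5 each, and by nearest end acetylcholine had 1. Windows moved up by 200 kb met 2 genes (1 monoamine, 0 acetylcholine, 1 GABA and glycine, 0 glutamate; 0 synthesis, 1 plasma membrane, 1 vesicular) and 3 further genes. Windows moved down met 2 (0 monoamine, 0 acetylcholine, 1 GABA and glycine, 1 glutamate; 0 synthesis, 1 plasma membrane, 1 vesicular) and 4 further genes. The number of transmitter gene windows with an element match was 1 at 15 letters or 14, 0 at 16, and 2 with any gap from 0 to 20. Of Ache, Maoa and Maob, 0 had a peak in these settings, with Maob not measured in those on listed starts.

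No paired analysis was possible because the deposited list has no value per replicate, and for the same reason leaving out each replicate could not be run. The depth of the libraries is unknown, so a gene without a peak cannot be told apart from one whose binding fell below the authors' threshold.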
